A study of Caenorhabditis elegans with 15 samples.

Results

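The astacins of Caenorhabditis elegans are secreted zinc metalloproteases, most of them numbered in the nas series. They were taken here as the probe sets with exactly 1 gene symbol in the array annotation that starts with nas- or is dpy-31 or hch-1, with the probe set of the highest mean log2 signal kept for each gene. This gave 35 genes on 40 probe sets, of 17118 genes with such a probe set. Levels were measured in total RNA of whole N2 wild-type worms, grown at 20 °C on NGM agar with OP50 bacteria, exposed throughout life and harvested as day 1 adults. The worms were harvested in 5 groups of 3 biological replicates, each on its own Affymetrix array. The controls received water or Z-medium, with no sample added. The August and October groups received filtrate of Lake Stößensee, Berlin, at 200% of its original AOBr content, an abbreviation usually read as adsorbable organically bound bromine, and are set against water. The culture group received filtrate of a Microcystis aeruginosa batch culture at 40% of its original AOBr content, and is set against Z-medium. The labels describe filtration and lyophilisation only for the lake and culture samples, so an effect of that handling and one of the sample cannot be told apart.

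As background, astacins carry a zinc-binding catalytic domain behind a propeptide that keeps them inactive until it is removed. In the worm the family is grouped by the domains that follow the catalytic one, from short enzymes with none (subgroup I) through enzymes with ShK-type toxin domains (II) or EGF-like and CUB domains (III and IV) to those that add a thrombospondin repeat (V) and a tolloid-like enzyme (VI). Members with a known role act on the cuticle and its collagens, on the shedding of the old cuticle at each molt, on the lining and grinder of the pharynx, and on the eggshell at hatching. Day 1 adults have passed their last molt.

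Of the 35 genes, 17 had a mean log2 signal at or above 5.86 (a linear signal of 57.9), the level below which probe sets were not tested, and 18 lay below it. By subgroup, 1 of 3 genes of subgroup I passed this filter, 6 of 10 of II, 4 of 13 of III, 1 of 2 of IV, 5 of 6 of V and 0 of 1 of VI. The probe sets of 7 of the 35 genes, among them dpy-31, hch-1, nas-15 and nas-37, carry the suffix that Affymetrix gives to probe sets that can match several transcripts. The genes nas-2, nas-3 and nas-23 and the pseudogene nas-40 had no probe set of their own by the rule and were not analysed here. Array medians lay between 99.2 and 113 on the linear scale. No 2 arrays held the same values, with a highest correlation of log2 signals of 0.969 across probe sets. The labelled whole worm was checked against markers: 9 of 10 sperm, 9 of 9 oocyte and eggshell, 6 of 6 epidermal, 7 of 7 intestinal, 7 of 8 pharyngeal, 4 of 4 body wall muscle and 6 of 7 neuronal markers on the array passed the filter. Of the 7 embryo markers 2 passed it. The replicate 1 arrays of all groups stood apart from replicates 2 and 3, so values are given by replicate throughout. The plot of centred log2 signals shows the 17 tested genes on all arrays.

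**Figure D1:**
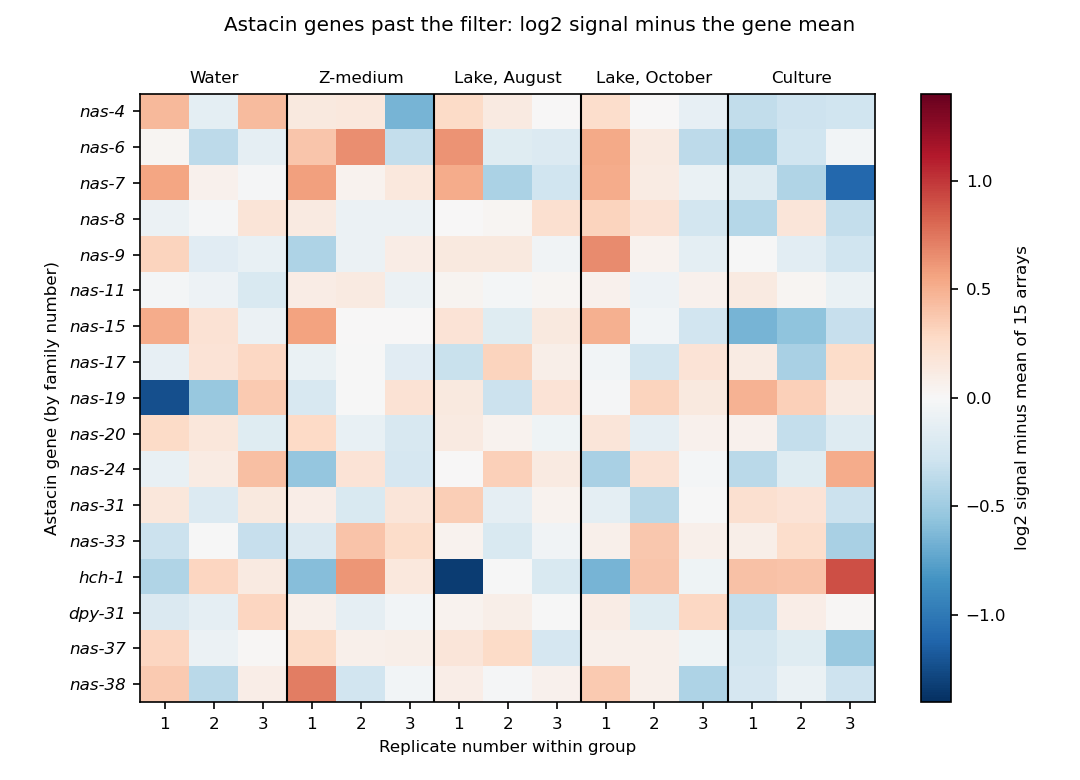
Each row is 1 of the 17 astacin genes past the filter and each column 1 of the 15 arrays, grouped by exposure and numbered by replicate; colour gives the log2 signal minus the gene's mean over all arrays. The row of nas-7 is raised in replicate 1 of every group relative to replicates 2 and 3 of that group, while the culture arrays are low for nas-15 and nas-37.

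In the model with group means alone, no astacin gene passed the test in any of the 6 comparisons of exposures, while nas-7, nas-15 and nas-37 passed as lower in the culture once replicate 1 had a term of its own. By limma with Benjamini-Hochberg adjustment, 0 of 17 genes were called in August against water, where 0.00739% of all 13529 probe sets were called, and 0 of 17 in October against water, where 0% were. In the culture against Z-medium 0 of 17 were called, beside 1.54% of all probe sets. With the term for replicate 1, a setting chosen after seeing the data, 3 of 17 were called there, beside 8.88% of all probe sets. Further, 0 of 17 were called in October against August (0.0148% of all), between the Z-medium and water controls (0.0222%), and in the test of the culture effect against the average lake effect (0.266%). At an unadjusted p under 0.05 the counts were 0 for both lake comparisons (3.05% and 2.11% of all probe sets), and 3 lower and 0 higher for the culture (15.2% of all in either direction, 10.1% lower). They were 0 for October against August (2.59%), 0 between the controls (2.34%), and 1 for the difference of the effects (8.54%). With 3 arrays against 3 an exact permutation test cannot give a p below 0.1, so none was run for single genes. The labels call the replicates biological and say that worms were cultivated in triplicate, so the p-values rest on the spread between worm samples of a group. In the fit of group means alone that spread includes what same-numbered arrays shared.

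The median log2 change of the 17 genes was 0.02 in August, -0.03 in October and -0.14 in the culture, beside -0.01, 0.00 and 0.00 for all probe sets tested. In the culture the log2 change was negative for 12 of the 17. Median scaling of the arrays moved the median of all probe sets by 0.11 in the culture comparison, and 9 of 17 were then negative with a family median of -0.03. Relative to the median of all probe sets, 12 of 17 were lower with the deposited values and with median scaling, and 10 of 17 under quantile normalization. The plot of log2 changes gives every tested gene with its 95% confidence interval.

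**Figure D2:**
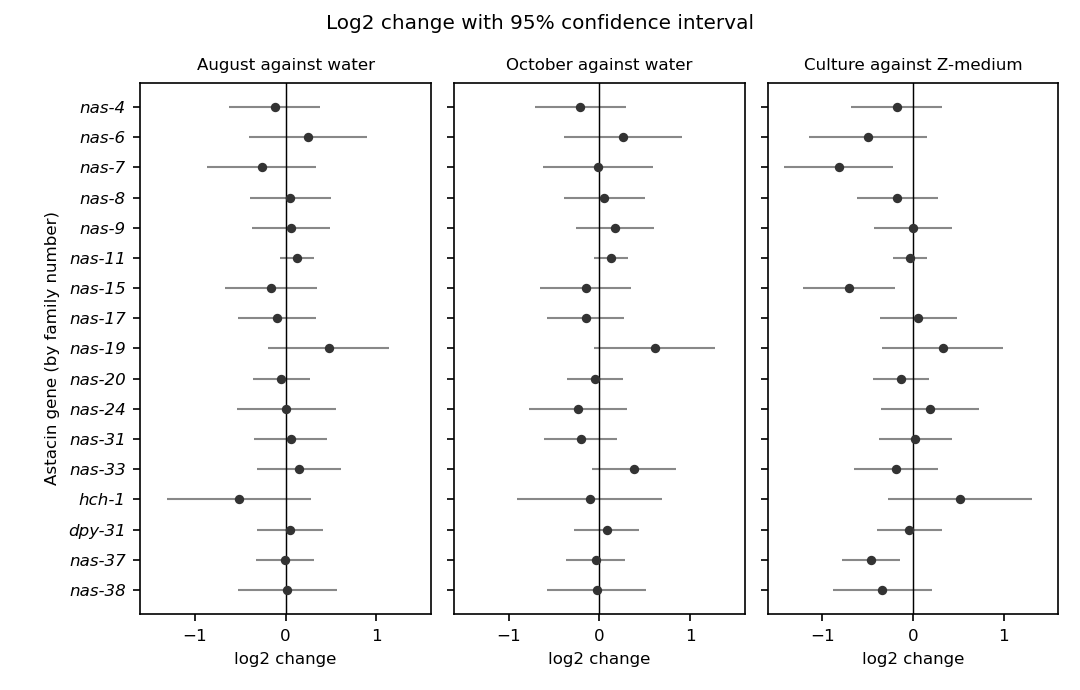
Points are log2 changes of the 17 tested genes in August against water, October against water and culture against Z-medium. Bars are their 95% confidence intervals from the fit of group means over all 15 arrays, without the replicate block. Every lake interval includes 0, while the culture intervals of nas-7, nas-15 and nas-37 lie below 0 before any adjustment for the number of probe sets.

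Among the proteases of molting, nas-37 acts with nas-36 in the shedding of the old cuticle. In the culture the nas-37 signal was 203, 216 and 169.5 in replicates 1 to 3, against 294, 257 and 259 in Z-medium. All 3 culture arrays lay below all 3 Z-medium arrays. Water and lake arrays lay between 208 and 299, and of these August replicate 3, at 208, was inside the range of the culture. The log2 change was -0.46 ± 0.15 (SE; 95% interval -0.79 to -0.14; limma adjusted p = 0.149, and 0.0433 with the term for replicate 1). In the lake samples it was -0.01 ± 0.15 in August and -0.04 ± 0.15 in October, so a change of more than 0.37 in size lay outside both intervals. The test of the culture effect against the mean lake effect gave a log2 difference of -0.44 ± 0.20 (adjusted p = 0.568). Beside it, the summed signal of 30 molting genes, of which 27 passed the filter, ran from 11925 to 12639 in the culture and from 13288 to 14416 in Z-medium, without overlap. The part of that shift in the nas-37 values was not tested.

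Its partner nas-36 lay below the filter, with 4 of 15 arrays at or above it. Signals were 74.6, 60.004 and 38.9 in water, 64.6, 38.1 and 66.4 in Z-medium, 55.1, 45.3 and 28.2 in August, 52.0, 33.01 and 33.2 in October, and 53.8, 34.9 and 19.7 in the culture. The groups overlapped throughout. Another gene of this kind, nas-38, affects the quiet state of larvae during the molt. Its signals were 106, 117 and 102 in the culture against 204, 103 and 121 in Z-medium, where replicate 1 was the highest of all 15 arrays. The groups overlapped, and the log2 change was -0.34 ± 0.26 (adjusted p = 0.547). Without Z-medium replicate 1 it was -0.051, and without Z-medium replicate 2 it was -0.54. The lake values for nas-38 were 0.02 ± 0.26 in August and -0.03 ± 0.26 in October.

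The gene dpy-31 encodes a procollagen C-proteinase that the worm needs for its cuticle, with the collagen SQT-3 as a substrate. Its signals were 147, 155 and 207 in water, 176, 154 and 164 in Z-medium, 175, 178 and 168 in August, 180.5, 149.7 and 206 in October, and 134, 180.0 and 170.4 in the culture. The 5 groups overlapped and their means lay between 161 and 179. The log2 change was 0.05 ± 0.17 in August, 0.08 ± 0.17 in October and -0.04 ± 0.17 in the culture. The 95% intervals reached from -0.40 to 0.32 in the culture and from -0.28 to 0.44 in October. For this probe set a change of a size beyond 0.44 lay outside them. The other 2 probe sets of dpy-31 also passed the filter and gave log2 changes from -0.14 to 0.15 in the same comparisons. Their intervals reached further, to -0.53 in October and 0.55 in the culture. The collagen gene sqt-3 had a log2 change of -0.18 ± 0.17 in the culture (adjusted p = 0.645). It was at 0.07 in August and -0.09 in October. Averaged over all of its probe sets the culture value of sqt-3 was -0.40 and passed (adjusted p = 0.0414). A further collagen gene whose loss resembles that of dpy-31, dpy-17, was at 0.62 ± 0.37 in the culture (adjusted p = 0.436).

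Of the pharyngeal astacins, nas-6 is needed for the grinder, the chewing plates of the pharynx, and nas-7 acts beside it. For nas-7 the culture arrays read 138, 117 and 72.9 and the Z-medium arrays 233, 161 and 172. The culture lay wholly below its control, with group means of 109 and 189. The log2 change of -0.82 ± 0.28 (95% interval -1.42 to -0.22) had a limma adjusted p of 0.172, and of 0.00432 with the term for replicate 1. Lake values of nas-7 overlapped with water, at 224, 114 and 128 in August and 224, 168 and 146 in October against 228, 162 and 154. The log2 changes of nas-7 were -0.26 ± 0.28 in August and -0.01 ± 0.28 in October. With the replicate number as a block the August value was -0.26 ± 0.16 (95% interval -0.61 to 0.09).

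For nas-6 the signals were 44.2, 50.8 and 60.2 in the culture and 80.8, 96.9 and 49.1 in Z-medium, which overlapped. The log2 change was -0.50 ± 0.31 (adjusted p = 0.447), and the mean signals of the culture, 51.7, and of water, 55.7, lay below the filter level. Without Z-medium replicate 2 the culture value was -0.30, and without Z-medium replicate 3 it was -0.79. The August value was 0.25 ± 0.31 and the October value 0.25 ± 0.31, each with 1 high array, replicate 1 at 95.7 and 89.2. The test of the culture effect against the mean lake effect gave -0.75 ± 0.40 for nas-6 and -0.68 ± 0.37 for nas-7 (adjusted p = 0.642 and 0.652). Beside these values, the summed signal of the 8 pharynx markers, 7 of them past the filter, was 3099 to 3470 in the culture and 3779 to 4557 in Z-medium, without overlap, and the homeobox gene ceh-22 was the marker below the filter. Of the 7 tested markers 0 passed the test on their own, and the log2 change was positive for 2. Much of the gap in the sum lay in myo-1, at 1586, 1372 and 1492 in the culture and 2124, 2052 and 1678 in Z-medium. The sum of the epidermal markers, 8758 to 9836 in the culture and 9072 to 9927 in Z-medium, overlapped. So did the sums for body wall muscle (15627 to 21201 and 17596 to 19178.5) and neurons (5659 to 6318 and 5606 to 6231). Values of some other cell types shifted between these groups too. The sum of the 7 intestinal markers was 21185 to 23751 in the culture and 24932 to 27406 in Z-medium, again without overlap, and cpr-1 and ifb-2 were called lower. A large part of that gap lay in the single gene cpr-1, at 4302, 4225 and 4846 in the culture and 7513, 7638 and 6844 in Z-medium. The log2 change was negative for 9 of 9 sperm markers (median -0.58) and positive for 9 of 9 oocyte and eggshell markers (median 0.17), with 0 of either called. The part of these shifts in the astacin values was not tested, and in whole worms fewer cells of a type and less RNA per cell cannot be told apart.

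The hatching enzyme gene hch-1, which late embryos need to leave the eggshell, had the widest spread of the tested astacins. Its SD between arrays of 1 group was 0.52 on the log2 scale, at the 96.5th percentile of all tested probe sets. Culture signals were 118, 117 and 167 against 59.0, 137 and 98.5 in Z-medium, and the groups overlapped (log2 change 0.51 ± 0.37, adjusted p = 0.531). Leaving out Z-medium replicate 1 gave 0.19, and leaving out Z-medium replicate 2 gave 0.79. August signals were 35.4, 88.5 and 76.8 and October signals 56.7, 117 and 85.2, against 66.4, 109 and 96.9 in water. The log2 changes were -0.52 ± 0.37 (95% interval -1.31 to 0.28) and -0.11 ± 0.37. August was below water in all 3 same-numbered pairs. With the replicate number as a block the August interval was -1.003 to -0.029 (unadjusted p = 0.0393, adjusted p = 0.910, limma). In that fit 5.45% of all probe sets had an unadjusted p under 0.05 in August. In the culture, where the numbers were not read as pairs, the block gave an interval of 0.026 to 1.0004 (unadjusted p = 0.0401, adjusted p = 0.192, limma). There 22.8% of all probe sets had an unadjusted p under 0.05. The August value was -0.11 without August replicate 1 and -0.77 without August replicate 2. Summed over the 7 embryo markers the signal was 409 to 436 in the culture and 236 to 449 in Z-medium, with 5 of the 7 below the filter.

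The tolloid-like gene nas-39, closest in domain layout to the vertebrate enzyme BMP-1, lay below the filter. Its signals were between 37.2 and 63.8 in 14 arrays and 88.9 in culture replicate 3. In the culture the arrays read 61.5, 53.1 and 88.9, and in Z-medium 51.4, 63.8 and 57.2.

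**Figure D3:**
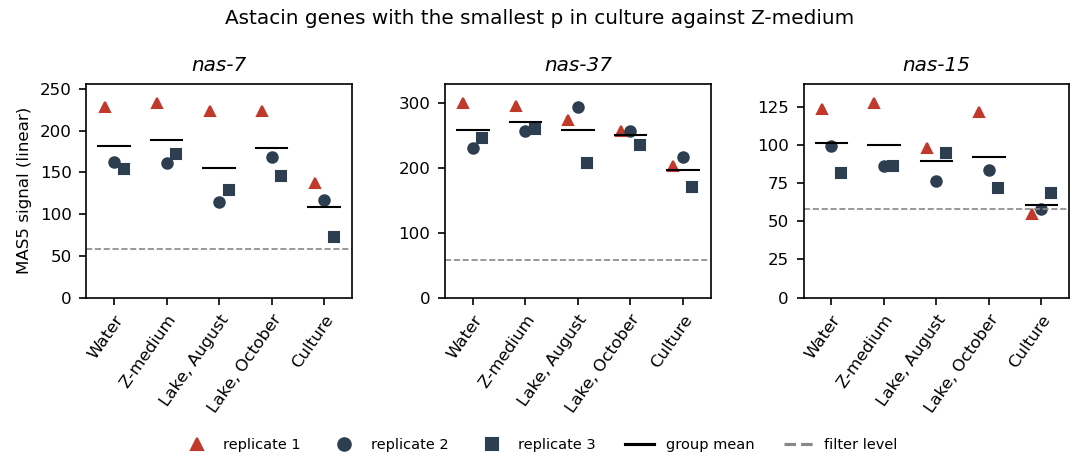
Linear MAS5 signals of nas-7, nas-37 and nas-15 on all 15 arrays, with red triangles for replicate 1, dark circles and squares for replicates 2 and 3, black bars for group means and a dashed line at the filter level of 57.9. The 3 culture arrays lie below the 3 Z-medium arrays for each gene, and nas-15 lies near the filter level there.

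The remaining tested genes of subgroup II gave 1 further separation of culture and control. The signals of nas-15 were 54.8, 58.2 and 68.8 in the culture against 128, 86.5 and 86.3 in Z-medium, and the culture arrays lay below all 12 others, which began at 72.0. The log2 change was -0.71 ± 0.24 (95% interval -1.21 to -0.20; limma adjusted p = 0.160, and 0.0389 with the term for replicate 1). Together with nas-7 and nas-37 this made 3 of 17 tested genes wholly below Z-medium and 0 wholly above it, where 11.3% of all probe sets lay wholly below and 7.85% wholly above, a share near that of the family. By contrast, nas-11 was the steadiest of the 17, with a within-group SD of 0.09 on the log2 scale (the 8.80th percentile of all tested) and signals from 862 to 1096. Its culture change was -0.03 ± 0.09, with an interval of -0.22 to 0.15. In August it was 0.12 ± 0.09, and its 3 arrays (988 to 1033) lay just above water (862 to 983). This was the 1 such case among the 17 in August, where 3.33% of all probe sets lay wholly above water. The main probe set of nas-9 was at -0.01 ± 0.20 in the culture, while its other probe set, with culture arrays wholly below Z-medium, was at -0.43 ± 0.20 (adjusted p = 0.329). The gene nas-8 and, from subgroup I, nas-4 had culture values of -0.18 ± 0.21 and -0.18 ± 0.24.

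In subgroup III 4 genes were tested, and none of them separated the exposed worms from their control. Among them nas-17 and nas-19 are next to each other in the genome, with nas-18 on the other side of nas-17. Of the tested genes nas-19 had the smallest p in both lake comparisons, and it did not pass (unadjusted p = 0.071 in October and 0.153 in August, adjusted p = 1.00 in both). Its October arrays read 60.5, 76.1 and 67.1, and its water arrays 25.98, 42.4 and 79.0, so that the range of water enclosed that of October. The geometric mean of water, 44.3, lay below the filter level, so the fitted log2 changes of 0.61 ± 0.31 in October and 0.47 ± 0.31 in August rest in part on signals in that range. Without water replicate 1 they were 0.22 and 0.087, and without water replicate 3 they were 1.03 and 0.89. Its neighbours differed from it: nas-17 was at -0.15 ± 0.20 in October, and nas-18 lay below the filter on all 15 arrays. A second run of adjoining genes holds nas-20, nas-21 and nas-22, of which nas-20 alone was past the filter. Its signals lay between 684 and 1052, and its log2 change was -0.05 ± 0.15 in August, -0.05 ± 0.15 in October and -0.14 ± 0.15 in the culture. The gene nas-24 was at 0.01, -0.24 and 0.18 in these comparisons.

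Subgroup IV was represented by nas-31, with log2 changes of 0.06 ± 0.19, -0.21 ± 0.19 and 0.03 ± 0.19 in August, October and the culture. In October against August its value was -0.26 ± 0.19 (adjusted p = 1.00), the smallest p of the tested members in that comparison. The subgroup V gene nas-33 had October signals of 92.2, 113 and 92.0 against 70.9, 87.2 and 69.9 in water. The October arrays lay wholly above water, as for 3.75% of all probe sets, and the log2 change was 0.38 ± 0.22 (95% interval -0.08 to 0.85; adjusted p = 1.00). They also lay above all 3 August arrays, as for 3.69% of all probe sets, with a log2 change of 0.24 ± 0.22 in that comparison. Among Z-medium and water, which share the place of control, the smallest p values of tested members were those of nas-11 (log2 change 0.16 ± 0.09), nas-33 (0.36 ± 0.22) and nas-4 (-0.38 ± 0.24), each with an adjusted p of 1.00.

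Astacin genes also differed between replicates. In the fit with group and replicate 1 as terms, 4 of 17 genes passed for replicate 1 against replicates 2 and 3, 2 higher and 2 lower, where 18.1% of all probe sets passed (10.8% higher and 7.36% lower), a share near that of the family. The gene nas-7 was higher in replicate 1 by 0.60 ± 0.11 on the log2 scale (limma adjusted p = 0.00136), with signals of 228 in water, 233 in Z-medium, 224 in each lake sample and 138 in the culture. Replicate 1 was its highest array in 5 of 5 groups, while the 10 other arrays lay between 72.9 and 172. The gene nas-20 was higher by 0.28 ± 0.07 (adjusted p = 0.00877) and was also highest in replicate 1 in 5 of 5 groups. That call ended under median scaling (adjusted p = 0.0708) and without Z-medium replicate 1 (0.0524).

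The hatching gene hch-1 was lower in replicate 1, with a log2 change of -0.78 ± 0.15 (limma adjusted p = 0.00210). Its replicate 1 signals were 66.4, 59.0, 35.4 and 56.7 in water, Z-medium, August and October, the lowest of each group, and 118 in the culture, between the other 2 arrays. The gene nas-24 was also lower (log2 change -0.44 ± 0.13, adjusted p = 0.0231) and lowest in replicate 1 in 5 of 5 groups. Its call ended without replicate 1 of Z-medium (0.0738), October (0.0672) or the culture (0.0595). Next in order were nas-38 at 0.39 ± 0.14 and nas-15 at 0.33 ± 0.14, which did not pass (adjusted p = 0.0633 and 0.105). Without the 3 culture arrays, a setting chosen after seeing the data, both passed and the count became 6.

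Values of other genes moved with the same split. Of 7 pharynx markers 4 were higher in replicate 1 (myo-1, myo-2, tnc-2 and phat-2), and their list summed to 3470 to 4864 there against 3099 to 4127 on the other arrays. Of 9 sperm markers 8 were higher, with sums of 39101 to 44264 against 22816 to 37845. Of 7 intestinal markers 4 were higher (act-5, ifb-2, ges-1 and pho-1). Of 6 epidermal markers 2 were higher (rol-6 and bli-1, both also counted among the body shape collagens below) and 1 lower (lin-26). Of 9 oocyte and eggshell markers 1 was lower (oma-1), and 1 of 4 body wall muscle and 1 of 6 neuronal markers were higher. Of the 2 embryo markers tested, pes-1 was lower, and the sum of 7 ran from 236 to 409 against 321 to 454. The labels give the numbers as biological replicates and name no batch or date. The part of these differences in the astacin values was not tested.

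**Figure D4:**
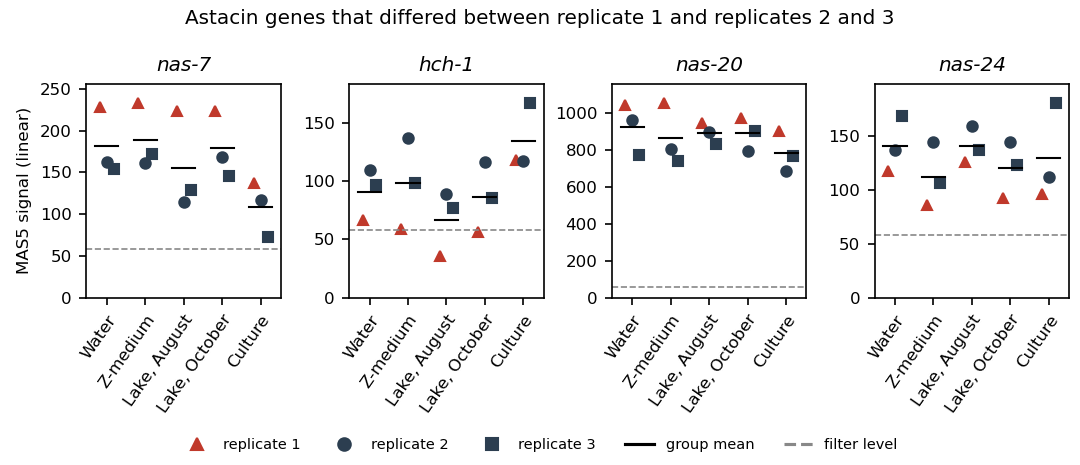
Linear MAS5 signals of the 4 astacin genes called between replicate 1 (red triangles) and replicates 2 and 3 (dark circles and squares) in each of the 5 groups, with group means as black bars and the filter level of 57.9 dashed. Replicate 1 is the highest array of every group for nas-7 and nas-20, the lowest of every group for nas-24, and the lowest of every group but the culture for hch-1.

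The 18 genes below the filter had signals from 1.07 to 89.3, and 10 of them had no array at or above its level. These were nas-1, nas-10, nas-12, nas-13, nas-14, nas-16, nas-18, nas-21, nas-25 and nas-28. With no detection calls in the deposited values, such signals are given without fold changes. For nas-1, of subgroup I, the culture arrays read 6.74, 2.92 and 4.81, below the Z-medium arrays at 45.6, 16.7 and 16.9. For nas-30 the culture arrays at 12.5, 13.3 and 10.5 lay below the Z-medium arrays at 79.2, 62.7 and 33.3. Of all tested probe sets 11.3% lay wholly below Z-medium in the culture. This share and those that follow in this paragraph cover only probe sets past the filter. They are not a background for genes below it. In a limma fit with no filter the adjusted p was 0.179 for nas-1 and 0.293 for nas-30. The gene nas-32, near the filter with 6 arrays at or above it, read 88.3, 60.8 and 62.7 in October, above water at 36.1, 32.2 and 55.1 and above August at 51.7, 43.0 and 52.1. Of all tested probe sets 3.75% lay wholly above water and 3.69% wholly above August in October. The other probe set of nas-32 overlapped between these groups. The gene nas-27 read 73.0, 70.2 and 55.2 in Z-medium, above water at 50.7, 32.4 and 11.4, as 3.43% of all tested probe sets did. The same held for nas-21, at 26.1, 34.1 and 27.3 in Z-medium and 22.2, 21.4 and 22.8 in water. For nas-28 the August arrays read 31.1, 26.1 and 28.5, below water at 37.9, 31.9 and 36.8. The share of all probe sets wholly below water in August is not given here. In the fit with no filter 0 of the 35 genes passed in any comparison of exposures.

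**Figure D5:**
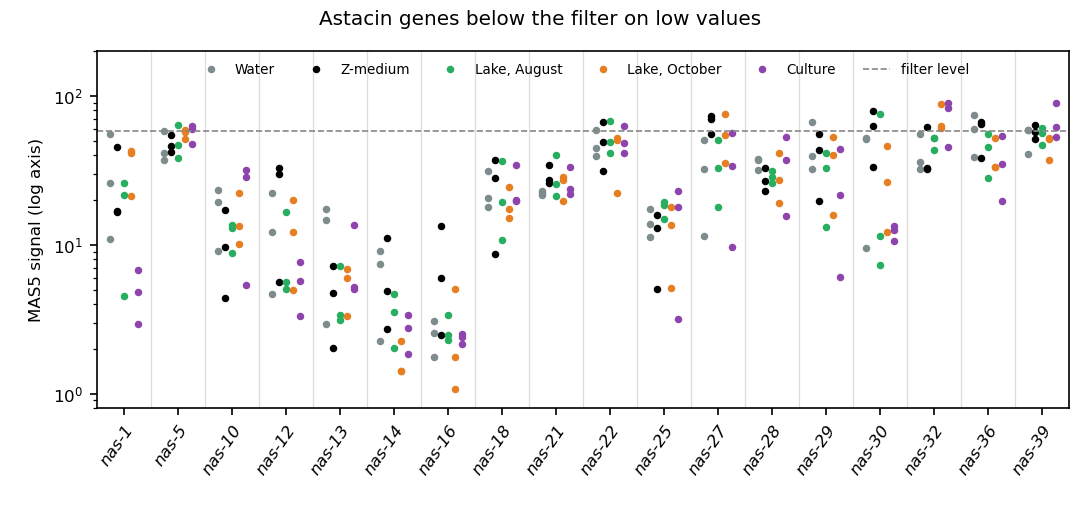
Linear MAS5 signals, on a log axis, of the 18 astacin genes below the filter, with 1 point per array, coloured by group, and the filter level of 57.9 dashed. The culture points of nas-1 and nas-30 lie below their Z-medium points, and 10 genes lie wholly below the dashed line.

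Genes that work around the astacins were counted from lists. Of 9 genes of collagen processing and cuticle cross-linking, 12 of the DBL-1 pathway (the worm's BMP-like signal, with which tolloid-type enzymes are linked in other animals), and 21 other extracellular metalloproteases and their inhibitors, 0 passed in August, October or the culture. Of 19 body shape collagens 3 were lower in the culture and 0 higher (median log2 change -0.88, beside 0.00 for all tested), and of 27 molting factors 2 were lower and 0 higher (median -0.21), where 1.54% of all probe sets were called. In both lake samples 0 of either list passed. The cuticle collagen gene dpy-9 was lower in the culture by at least 2.21-fold, its signals of 33.5, 32.2 and 49.0 lying below the filter (limma adjusted p = 5.23e-04). It passed with each of the 6 arrays of that comparison left out. The other collagens were dpy-3 (log2 change -1.02 ± 0.24, adjusted p = 0.0473) and ram-2 (-0.996 ± 0.23, adjusted p = 0.0426). The molting factors were qua-1, a hedgehog-related gene, lower by at least 2.08-fold (adjusted p = 0.0420), and ptr-23, a patched-related gene (log2 change -0.79 ± 0.17, adjusted p = 0.0278). These last 4 calls stayed in 1, 1, 1 and 2 of the 6 fits that each left out 1 array, and the highest adjusted p was 0.198 and 0.198 without Z-medium replicate 1 for dpy-3 and ram-2, 0.182 without culture replicate 3 for qua-1 and 0.132 without culture replicate 2 for ptr-23. For replicate 1 against replicates 2 and 3, 11 of 19 body shape collagens were higher and 2 lower, as were 5 and 2 of 27 molting factors, beside 10.8% of all probe sets higher and 7.36% lower.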

How the data were processed

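The members, gene lists and tests were chosen with earlier results of these data known. The deposited values are linear signal intensity, made by the authors with MAS5 in Affymetrix Expression Console 1.2.0.20, per the submitters' processing notes. They hold no detection calls and no column of another series. The log2 of each signal was used, without an offset. The 77 control probe sets were left out, and the 13529 probe sets at or above the 40th percentile of mean log2 signal were tested. A single linear model held 5 group means over the 15 arrays. It was fitted in R 4.3.3 with limma 3.58.1 (functions lmFit and eBayes, trend on; 10 residual degrees of freedom, or 9 with the replicate 1 term), and p was adjusted by Benjamini-Hochberg over all probe sets at 0.05. The procedure was tested on simulated data. These had independent noise on each array and no replicate 1 effect, so they cannot show how the procedure behaves with such an effect. Errors on log2 changes are SE of the fit, and those on signals SD over 3 arrays. Log2 changes, SE and intervals are from the fit without a replicate block, also where numbers were read as pairs, unless a block or the replicate 1 term is named. The number of arrays limits precision. Names came from the array annotation. All 35 members matched a gene ID and symbol of the RefSeq gene table (WBcel235), used for names and neighbours only. Named with values were the 3 members with the smallest p per comparison, those past the test and those with a known role. Other members named for their arrays were chosen after their values were seen. Alternatives were other scalings, filters, an offset, other samples and the replicate number as a block. Same-numbered arrays deviated together (correlations over 0.1 in all 3 pairs) in August against water (0.20 to 0.53), October against August (0.21 to 0.46) and Z-medium against water (0.21 to 0.56), so these numbers were read as pairs. The block changed no member's call at the adjusted threshold in these 3 comparisons. At an unadjusted p under 0.05 it added hch-1, lower in August, where 5.45% of all probe sets had such a p with the block.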

Additional observations from a re-analysis of the deposited data

How the results depend on the processing

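The count of astacin genes past the test stayed 0 in each of the other 5 comparisons of exposures under every alternative run and with each array left out (0 to 0), and stayed 0 for the culture in 9 of 11 alternatives. With a replicate block it was 3 in the culture (nas-7, adjusted p = 0.00414; nas-37, 0.0310; nas-15, 0.0456; all lower), and also 3 with a term for replicate 1, chosen after seeing the data. There the numbers were not read as pairs (correlations 0.36, -0.03 and 0.26), nor in October (0.47, 0.06 and 0.14). With the block 9.20% of all probe sets (1245) were called in the culture, against 209 without it. The block changed no other member's call. For replicate 1 the count was 3 to 5 with 1 array left out. Small changes turned sign. Without the 5 arrays numbered 1, dpy-31 was at -0.052 in August, -0.029 in October and 0.14 in the culture, and nas-37 at 0.054 in August and 0.046 in October. Under quantile normalization and median scaling nas-37 was at 0.029 and 0.014 in August and dpy-31 at 0.062 and 0.0698 in the culture, where the mean of its probe sets gave 0.0501. With 1 array left out, the August ranges were -0.047 to 0.20 (dpy-31), -0.11 to 0.14 (nas-37), -0.18 to 0.19 (nas-38) and -0.023 to 0.39 (nas-6). In October they were -0.027 to 0.23 (dpy-31), -0.36 to 0.16 (hch-1), -0.12 to 0.068 (nas-37), -0.23 to 0.19 (nas-38) and -0.19 to 0.16 (nas-7), and in the culture -0.13 to 0.0898 (dpy-31) and -0.30 to 0.066 (sqt-3). The cause was not tested. Signals near or below the filter level limit what can be read for the 18 genes below it.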
